A study of Mus musculus with 2 samples.

Results

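The 9 genes described here are the glucocorticoid receptor gene Nr3c1 and 8 genes known to respond to the hormone, Fkbp5, Tsc22d3, Zbtb16, Per1, Klf9, Sgk1, Errfi1 and Arrdc3, among 28692 gene rows measured in mouse islet cells. They were chosen by name, with earlier results from these same libraries in view (their levels in each cell class of both libraries), so their differences are given as descriptions and with no test. Single islet cells were profiled by droplet RNA sequencing in 2 libraries. One library came from flox/flox mice, which carry the conditional allele without a stated Cre, and the other from mice labelled BcBKO, a beta-cell deletion made with Pdx1-cre in a study of BAF60C in type 2 diabetes. BAF60C, encoded by Smarcd3, is a subunit of the BAF chromatin remodelling complex. The Pdx1 promoter that drives this Cre is active in the embryonic pancreas as well as in beta cells, so recombination need not be limited to beta cells. Strain, age and sex are not given in the sources used here.

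Each library pooled the islets of at least 3 mice, so there was 1 library per group and no replicate. Intervals below are 95% exact intervals for the counting of UMIs (unique molecular identifiers, one per captured transcript), and they do not cover differences between mice, dissections or captures. A difference between the genotypes and a difference between these 2 preparations cannot be told apart. In beta cells, where the transcript was scarce, the count of the deleted gene went against the label. Smarcd3 had 45 UMIs in flox/flox beta cells (0.374 counts per 1000000 UMIs, CPM) and 71 in beta cells of the library labelled BcBKO (0.610 CPM), a ratio of 1.63 with an interval of 1.11 to 2.42. The highest level was in the mural cells of vessel walls, at 64.8 and 41.9 CPM, a ratio of 0.647 (0.406 to 1.01). Over all kept barcodes the ratio was 0.911 (0.770 to 1.08). The counts come from the 3′ ends of transcripts. Which part of the gene was deleted is not given in the sources used here, and counts from outside that part would check nothing. The second library is called the library labelled BcBKO, or the BcBKO-labelled library, throughout.

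Glucocorticoids enter cells and bind the receptor, which is held in the cytoplasm by heat-shock chaperones and their partners. The bound receptor moves to the nucleus, where its dimers bind palindromic response elements and raise transcription of nearby genes, while it represses many inflammatory genes by other routes. In islets, glucocorticoids are known to restrain insulin secretion, and in endothelial cells and macrophages the same receptor gives much of their anti-inflammatory action.

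The elements bound by the receptor were looked for in the RefSeq promoter windows (build GRCm38.p6), which run from 250 bases before to 50 after each start. The table held 18 windows for 7 of the 9 genes and no entry was matched for Zbtb16 and Nr3c1. The element was searched as a palindrome of the 6-base core TGTTCT and its reverse complement AGAACA in front of it, with 3 free bases between, on both strands at once because it is its own reverse complement. An exact palindrome also counts as 2 cores. With at most 2 mismatches in the 12 fixed bases it was in 2 of the 18 windows, both of Sgk1, and in 606 of all 32851 windows, or 1.84%. An exact palindrome was in 1 Sgk1 window and in 0.00913% of all windows, 3 in number. The core alone, on either strand, was in 19% of all windows, in 3 of the 6 windows of Sgk1 and in 1 of the 3 of Tsc22d3. The windows of Fkbp5, Per1, Klf9, Errfi1 and Arrdc3 held none. A match describes letters and is not a site of binding, and no match speaks only of these windows.

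The sequences that follow show the exact match, the looser one, the Tsc22d3 core and, for contrast, the closest stretches of Errfi1 and Fkbp5. The 250 bases before one Sgk1 start, chr10:21993640-21993889 on the plus strand, lie in an intron of Sgk1 in GENCODE M21. Capitals mark cores on either strand, and the exact palindrome begins 189 bases before the start.
Sgk1 250 bases before a start: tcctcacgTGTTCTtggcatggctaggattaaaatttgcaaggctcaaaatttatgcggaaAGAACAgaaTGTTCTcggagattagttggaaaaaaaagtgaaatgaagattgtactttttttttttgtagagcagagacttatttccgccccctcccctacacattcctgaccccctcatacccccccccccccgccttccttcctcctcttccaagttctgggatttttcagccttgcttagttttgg
The looser Sgk1 match, chr10:21985909-21985947 on the plus strand, is also intronic and has 2 mismatches. In the second Sgk1 line and those of Errfi1 and Fkbp5, capitals mark the fixed bases that equal the element.
Sgk1 second start: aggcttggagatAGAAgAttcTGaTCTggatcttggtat
The Tsc22d3 core, in capitals, lies upstream of the gene at chrX:140600690-140600719 on the minus strand, 185 bases before a start.
Tsc22d3 core: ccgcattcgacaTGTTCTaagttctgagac
The closest Errfi1 stretch, chr4:150854823-150854861 on the plus strand, has 3 mismatches, and the closest Fkbp5 stretch, chr17:28486278-28486316 on the minus strand, has 6.
Errfi1 closest stretch: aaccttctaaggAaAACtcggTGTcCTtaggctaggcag
Fkbp5 closest stretch: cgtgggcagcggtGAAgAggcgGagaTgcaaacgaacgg

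The deposited matrices held 9438 and 10775 barcodes with 167670996 and 178647270 UMIs, the flox/flox library first here and in every pair below. After the filter on genes, UMIs and mitochondrial share, 7568 and 8504 barcodes were kept. They gave 2750 and 3058 beta cells, 377 and 634 alpha cells, 242 and 308 delta cells, 1178 and 996 endothelial cells, 223 and 163 mural cells (the pericytes and muscle cells of vessel walls) and 422 and 331 macrophages. The classes are thresholds on hormone share or marker UMIs. The marker sums below include the genes of these rules, so a high sum of a class's own markers is partly set by its rule. Sst alone was at 171645 and 167660.0 CPM in delta cells, and Rgs5 at 10585 and 9778 CPM in mural cells. The 8 endothelial markers summed to 16939 and 17464 CPM in endothelial cells against 26.9 and 25.2 CPM in macrophages. The macrophage markers summed to 22149 and 22036 CPM in macrophages and the mural ones to 17602 and 16148 in mural cells. The close mural sums hide differences within the list, where 1 of 7 was lower and 2 higher. Acta2 was at 4819 and 3205 CPM, Col1a2 at 344 and 622 and Col3a1 at 285 and 889.6. Alpha and delta cells had their own markers at 334499 and 306762 and at 177776 and 173871 CPM, and also Ppy and Pyy, the genes of pancreatic polypeptide cells, at 81974 and 69686 and at 101212 and 104569 CPM. Median depth ran from 3611 UMIs in mural cells to 38462 in beta cells. Barcodes that met more than one class rule, 629 and 595, were set aside. Of these, 555 and 489 met the endothelial and mural rules alone, with median depths of 11575 and 9487 UMIs, and they are given as a separate set. The 2 libraries shared 23 cell barcodes, 14 of them kept in both. Islet RNA from other cells was present throughout: the beta-cell markers summed to 45747 and 50384 CPM in endothelial cells, against 699956 and 681607 in beta cells. The summed acinar markers, enzymes of the exocrine pancreas, differed between the libraries in every class, with 7 of 7 lower at 1728 and 194 CPM in endothelial cells, 1128 and 183 in macrophages, 1314 and 226 in mural cells, 633 and 98.7 in delta cells and 435 and 79.2 in alpha cells. In beta cells they summed to 146 and 23.7 CPM. In macrophages Ppy and Pyy summed to 698 and 14996 CPM, the delta-cell markers to 233 and 1605, the alpha-cell markers to 2585 and 2937 and the duct markers to 381 and 50.4. In endothelial cells Ppy and Pyy summed to 5419 and 7739 CPM, the delta-cell markers to 256 and 1068, the alpha-cell markers to 1583 and 2660.0 and the duct markers to 182 and 119. In the barcodes with both endothelial and mural markers the sums were 558 and 1976 CPM of Ppy and Pyy, 237 and 638 of delta-cell markers and 838 and 2965 of alpha-cell markers. Of 5 duct markers 4 were higher in mural cells, with a median log2 ratio of 1.89 and Krt8 at 64.0 and 469 CPM, while their sum of 1037 and 1484 CPM was mostly Spp1, at 911 and 855. Krt8, Spp1, Acta2, Col1a2 and Col3a1 were chosen after their values were seen. Lymphocyte markers summed to at most 41.4 and Schwann cell markers to at most 39.1 CPM in any of the 6 classes. The part of these in the results below was not tested.

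A gene is called lower or higher here when the log2 ratio of CPM + 1, BcBKO-labelled over flox/flox, is past 0.25 and the gene has at least 20 CPM in either library of that class. Both the members and all other genes were read this way. In beta cells 1 member (Klf9) of the 4 at that level was lower and 1 (Errfi1) higher, where 1.80% of 2938 genes were lower and 5.82% higher. Alpha cells had 1 of 7 lower and 1 of 7 higher, against 2.77% and 18.2% of 4793 genes. For delta cells the counts were 2 lower and 1 higher of 7, against 15.2% and 12.2% of 5984 genes. Endothelial cells had 6 of 9 lower and 1 higher, against 9.30% and 8.03% of 6287 genes. In mural cells, the smallest class, 4 of 8 were lower and 3 higher, against 26.5% and 25.0% of 6956 genes. Macrophages had 3 of 8 lower and 1 higher, against 23.7% and 12.1% of 4934 genes. The members were chosen with these values known, so nothing is read from these counts.

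The background depends on the scaling. Among all genes called in beta cells 23.7% were lower, and 55.6% with TMM factors or 49.8% with totals that leave out hormone and mitochondrial genes. In alpha cells that split was 13.3%, 53.7% and 34.7%, and the median of all genes moved from 0.10 to -0.01 on the log2 scale with TMM factors. In endothelial cells it was 53.7%, 64.1% and 45.2%. The median log2 ratio of the 9 genes, those under the minimum included, was -0.46 in endothelial cells, -0.26 in mural cells, -0.15 in macrophages, -0.11 in delta cells, -0.07 in beta cells and 0.01 in alpha cells. Over all genes at the minimum the medians were 0.00, -0.00, -0.05, -0.02, 0.06 and 0.10 in the same order. With the members also limited to those at the minimum, their medians were -0.46, -0.27, -0.07, -0.11, -0.07 and 0.01. The macrophage median of the members was then close to that of all genes. The plot of ratios by class shows the genes one by one.

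**Figure D1:**
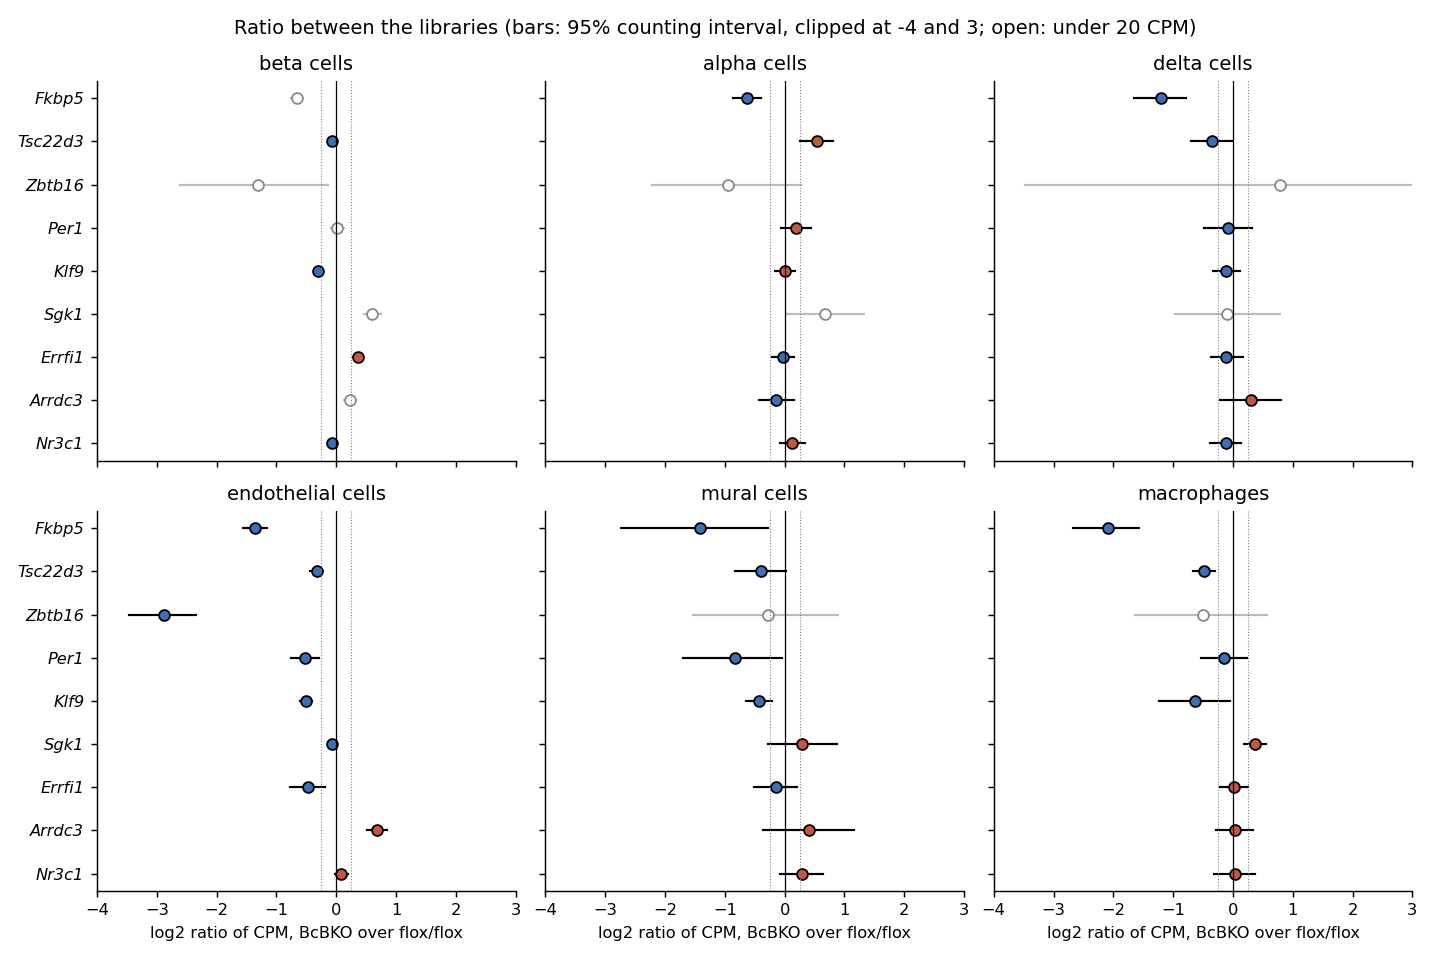
Log2 ratio of CPM (horizontal axis, BcBKO-labelled over flox/flox) of the 9 genes in each of 6 cell classes, with 95% counting intervals clipped at -4 and 3; open points are genes under 20 CPM in both libraries and dotted lines mark 0.25 either way. Fkbp5 lies to the left of 0 in all 6 panels, while Nr3c1 lies within 0.30 of 0 in every panel.

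The receptor gene itself was close in level between the libraries. Nr3c1, on chromosome 18 from 39410545 to 39519421 on the minus strand, had 230.1 CPM (219 to 242) and 245 CPM (231 to 259) in endothelial cells, a ratio of 1.06 (0.985 to 1.15). In beta cells it had 38.9 and 37.1 CPM (0.952, 0.913 to 0.992), the lowest level of the classes. Mural cells, at 133 and 162 CPM from 152 and 112 UMIs, were at a log2 ratio of 0.28 with an interval of the ratio from 0.944 to 1.56. The barcodes with both endothelial and mural markers had 234 and 274 CPM, a ratio of 1.17 (1.09 to 1.26). Their log2 ratio of 0.23 was inside the limit, with a counting interval above 1. Delta cells had 93.2 and 85.5 CPM (0.918, 0.766 to 1.10), macrophages 69.5 and 70.6 (1.02, 0.799 to 1.29) and alpha cells 57.0 and 62.2 (1.09, 0.943 to 1.26). Endothelial, mural and beta cells held their places in both libraries, first, second and last, while delta cells and macrophages were not separated, nor were macrophages and alpha cells.

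Fkbp5 was the member that was lower most widely. It encodes FKBP51, a co-chaperone that sits on the receptor complex, lowers its affinity for hormone and is itself induced by the receptor. The gene, ENSMUSG00000024222, spans chromosome 17 from 28399094 to 28517527 on the minus strand of GRCm38. Its level in endothelial cells was 139 CPM (129.8 to 148, from 903 UMIs) in flox/flox and 54.0 CPM (47.7 to 60.9, from 266 UMIs) in the library labelled BcBKO, a ratio of 0.390 (0.339 to 0.447). Macrophages had 81.5 and 19 CPM, from 197 and 34 UMIs, a ratio of 0.234 (0.157 to 0.338). The next classes were delta cells, with 53.2 and 23.0 CPM and a ratio of 0.432 (0.318 to 0.582), and alpha cells, with 57.5 and 37.2 CPM and a ratio of 0.647 (0.549 to 0.763). Mural cells had only 35 and 8 UMIs, for 30.7 and 11.6 CPM and a ratio of 0.377 (0.151 to 0.828). In beta cells Fkbp5 was under the 20 CPM minimum at 18.1 and 11.4 CPM, but 2179 and 1332 UMIs gave a ratio of 0.631 (0.589 to 0.676). All 6 intervals lay below 1, and so did that of the barcodes with both endothelial and mural markers, at 133 and 41.8 CPM (ratio 0.315, 0.270 to 0.367).

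A class sum cannot tell fewer cells with the transcript from less of it per cell. Fkbp5 was also counted as the share of cells with a UMI. With every cell thinned to 2000 UMIs, 22.7% of flox/flox endothelial cells had one (20.3% to 25.2%) and 10.6% in the library labelled BcBKO (8.68% to 12.7%); without thinning the shares were 47.0% and 21.5%. Thinning left out 27 and 50 cells. In macrophages the thinned shares were 17.0% (13.5% to 21%) and 3.07% (1.48% to 5.57%), and the unthinned ones 36% and 8.76%, with 10 and 5 cells left out. Beta cells, thinned to 10000 UMIs with none left out, had 17.3% (15.9% to 18.8%) and 10.6% (9.56% to 11.8%). Its lowest thinned share at 2000 UMIs was in beta cells, 3.96% and 2.22%, whose median depths were 38462 and 33172 UMIs against 4293 and 3942 in endothelial cells and 5474 and 4999 in macrophages. The macrophage share in the library labelled BcBKO was within the counting error of those beta-cell shares. No class here is known to lack Fkbp5, so the share that free RNA alone would give was not measured.

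**Figure D2:**
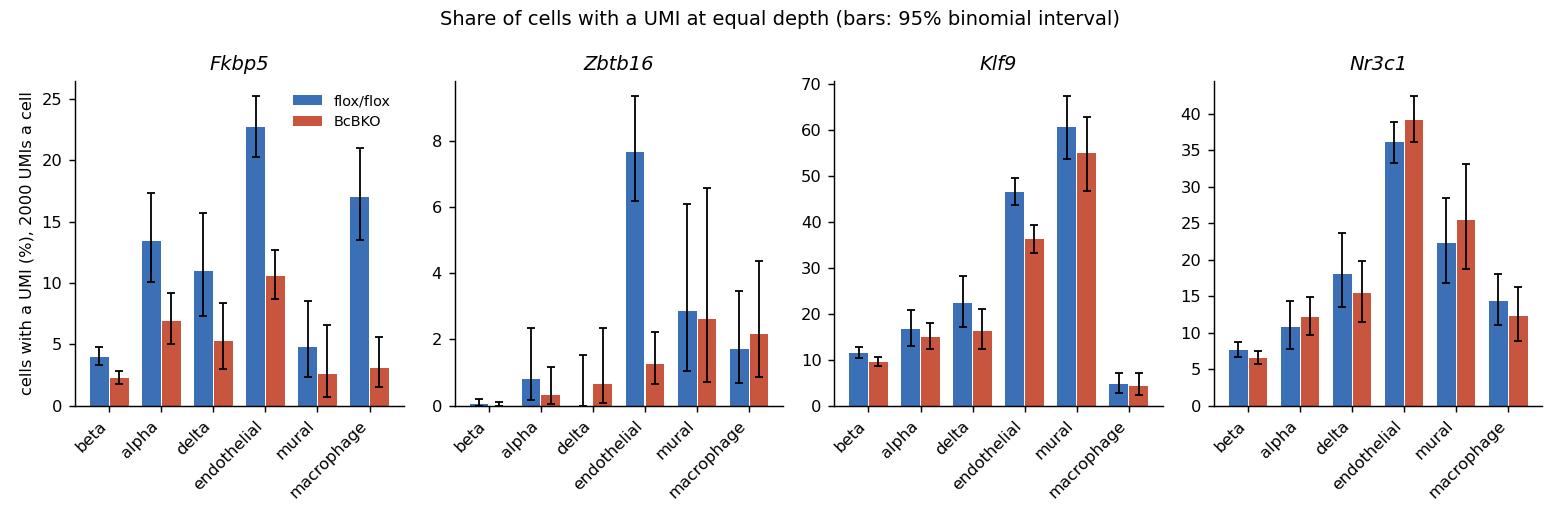
Share of cells with at least 1 UMI (vertical axis, percent) of Fkbp5, Zbtb16, Klf9 and Nr3c1 by class after thinning each cell to 2000 UMIs, in the flox/flox library and the library labelled BcBKO; bars are 95% exact binomial intervals and each panel has its own scale from 0. Fkbp5 shares are 22.7% and 10.6% in endothelial cells and 17.0% and 3.07% in macrophages, and Zbtb16 shares are 7.65% and 1.27% in endothelial cells.

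Zbtb16 gave the lowest ratio of the set, in endothelial cells. It encodes PLZF, a zinc-finger transcriptional repressor, and lies on chromosome 9 from 48654297 to 48836222 on the minus strand. Endothelial cells had 302 and 31 UMIs, or 46.4 CPM (41.3 to 51.9) and 6.30 CPM (4.28 to 8.94), a ratio of 0.136 (0.0906 to 0.197). Its log2 ratio of -2.70 was rank 28 from the lowest of 6287 genes, where Fkbp5, at -1.34, was rank 41. The barcodes with both endothelial and mural markers, from the same libraries, had 56.2 and 9.55 CPM and a ratio of 0.170 (0.123 to 0.230). At 2000 UMIs a cell, 7.65% (6.18% to 9.33%) and 1.27% (0.657% to 2.21%) of endothelial cells had a UMI, from 19.6% and 2.91% before thinning. In beta cells, which hardly carried the transcript, 1 of 2750 and 0 of 3058 thinned cells had one, the latter with an upper limit of 0.121%, and unthinned 0.655% and 0.229%.

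In the other 5 classes Zbtb16 was under the minimum. Mural cells had 17.5 and 14.5 CPM from 20 and 10 UMIs, with a ratio of 0.825 whose interval ran from 0.345 to 1.85. Macrophages had 9.51 and 6.72 CPM (ratio 0.706, 0.320 to 1.48). In alpha cells the levels were 2.78 and 1.44 CPM, and in delta cells there were 1 and 2 UMIs. Beta cells had 23 and 9 UMIs, for 0.191 and 0.0773 CPM and a ratio of 0.404 (0.164 to 0.906). The order of the classes differed between the libraries: endothelial cells had the highest flox/flox level and only the third in the library labelled BcBKO, below mural cells and macrophages, from which their interval was not separated.

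Klf9 was lower in 4 of 6 classes: endothelial cells, mural cells, macrophages and beta cells. It encodes a Krüppel-like transcription factor induced by glucocorticoids and thyroid hormone, on chromosome 19 from 23141226 to 23168134. Endothelial cells had 332 CPM (318 to 346) and 234 CPM (221 to 248), a ratio of 0.705 (0.656 to 0.758). The mural level was the highest of all classes at 498 and 369 CPM, with a ratio of 0.741 (0.637 to 0.861). In mural cells 26.5% of genes were lower, and Klf9 was rank 1040 from the lowest of 6956. Macrophages had the lowest level, 32.3 and 20.7 CPM from 78 and 37 UMIs (0.642, 0.422 to 0.961). Thinned to 2000 UMIs, 4.61% (2.80% to 7.11%) and 4.29% (2.37% to 7.10%) of macrophages had a UMI of Klf9. Over the alternatives described below, Klf9 in macrophages went as high as -0.14 on the log2 scale, inside the limit. In beta cells it was 63.0 CPM (61.6 to 64.5) and 51.1 CPM (49.8 to 52.4), a ratio of 0.810 (0.783 to 0.838), and this log2 ratio of -0.30 was rank 38 from the lowest of 2938 genes. Delta cells had 121 and 112 CPM (0.925, 0.789 to 1.08), and alpha cells 92.1 and 92.8 CPM (1.01, 0.898 to 1.13). The class order of Klf9, mural, endothelial, delta, alpha, beta and macrophage, was the same in both libraries, and every neighbour was separated by its intervals in both.

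Tsc22d3 was lower in endothelial, mural and delta cells and macrophages and higher in alpha cells, and Per1 was lower in endothelial and mural cells. Tsc22d3, on the X chromosome from 140539528 to 140600659, encodes GILZ, a leucine zipper protein that carries part of the anti-inflammatory action. Its endothelial level was 277 CPM (264 to 289.8) and 221 CPM (208 to 234), a ratio of 0.798 (0.739 to 0.861), and in macrophages 279.6 and 200.5 CPM (0.717, 0.629 to 0.816). Delta cells had 60.7 and 47.3 CPM (0.780, 0.616 to 0.986), while the mural ratio of 0.760, from 133 and 101 CPM, had an interval that reached 1.02. Ranks from the lowest were 487 of 5984 genes in delta cells, 1179 of 6956 in mural cells and 477 of 4934 in macrophages. Beta cells had 28.8 and 27.5 CPM (0.954, 0.909 to 1.00). Alpha cells went the other way, at 30.8 CPM (26.3 to 35.9) and 44.6 CPM (40.0 to 49.6), from 166 and 340 UMIs, a ratio of 1.45 (1.2 to 1.75). Alpha cells are also the class where 18.2% of genes were called higher; with TMM factors the log2 ratio went from 0.52 to 0.41.

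Per1 is a period protein of the circadian clock whose gene is also a rapid target of the receptor. It lies on chromosome 11 from 69095217 to 69109960. The endothelial level was 71.3 CPM (64.9 to 78.0) and 49.6 CPM (43.5 to 56.2), a ratio of 0.696 (0.593 to 0.814). Mural cells had 46.4 and 26 CPM, from 53 and 18 UMIs (0.561, 0.309 to 0.973). Macrophages, with 58.3 and 52.6 CPM, delta cells, with 40.3 and 37.8, alpha cells, with 39.2 and 44.6, and beta cells, with 13.6 and 13.8, had intervals of the ratio that held 1.

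**Figure D3:**
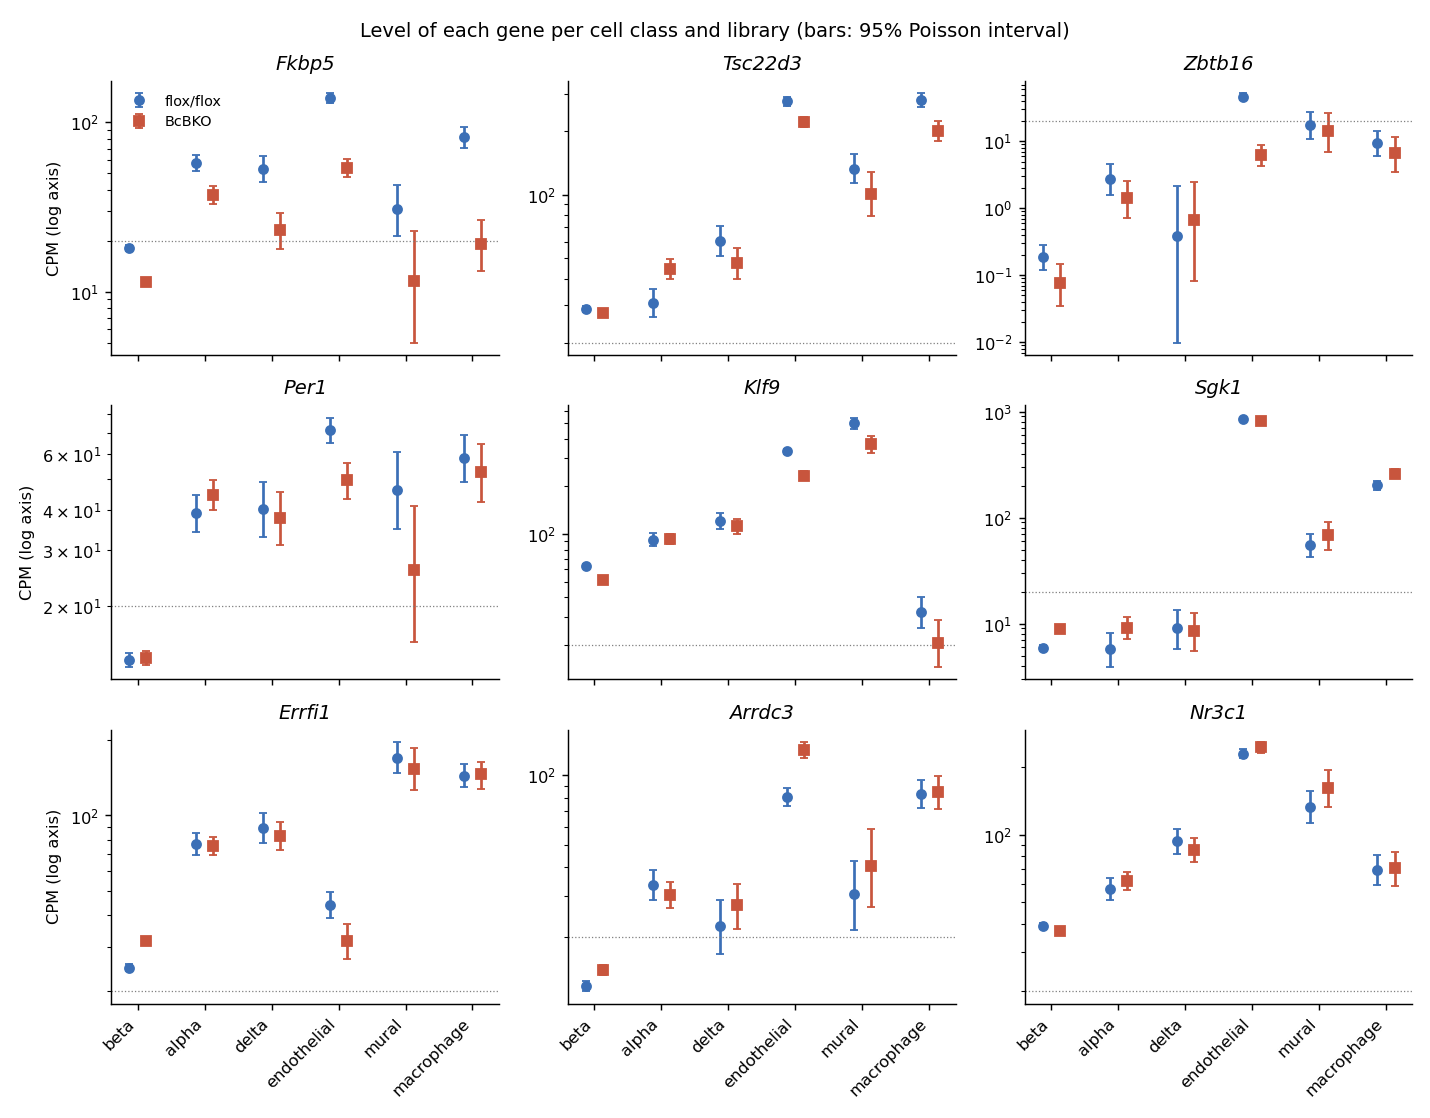
Level of each of the 9 genes (vertical axis, CPM on a log scale that differs between panels) in 6 cell classes, for the flox/flox library (circles) and the library labelled BcBKO (squares), with 95% Poisson intervals; the dotted line is 20 CPM. Sgk1 stands at 851 and 813 CPM in endothelial cells and under 10 CPM in beta, alpha and delta cells, and Arrdc3 is at 80.6 and 129 CPM in endothelial cells.

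Unlike Fkbp5, Sgk1 and Arrdc3 were lower past the limit in no class, and Errfi1 only in endothelial cells. Sgk1 encodes a serine/threonine kinase that controls ion channels and transporters, and spans chromosome 10 from 21882184 to 21999903. It is the gene with the exact palindrome above. The endothelial level, the highest of the classes, was 851 CPM (829 to 874) and 813 CPM (788 to 838), a ratio of 0.955 (0.917 to 0.995) inside the 0.25 limit. Macrophages were higher in the library labelled BcBKO, at 201 CPM (184 to 220.1) and 259.8 CPM (237 to 285), a ratio of 1.29 (1.13 to 1.47). Mural cells had 55.2 and 68.0 CPM, with an interval of the ratio from 0.826 to 1.83. The endocrine classes were under the minimum, at 5.89 and 8.97 CPM in beta cells (1.52, 1.38 to 1.68), 5.75 and 9.18 in alpha cells (1.60, 1.03 to 2.52) and 9.0 and 8.45 in delta cells (0.938, 0.511 to 1.73). Those 3 were not separated from each other in level.

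Errfi1 encodes MIG6, a feedback inhibitor of the epidermal growth factor receptor, on chromosome 4 from 150853919 to 150868892. In beta cells it was higher, 24.8 CPM (24.0 to 25.7) and 31.8 CPM (30.8 to 32.9), a ratio of 1.28 (1.22 to 1.35). In endothelial cells it was lower, 44.1 CPM (39.1 to 49.5) and 31.7 CPM (26.9 to 37.1), a ratio of 0.719 (0.588 to 0.877). The other 4 classes lay within the limit, with ratios of 0.984 in alpha cells, 0.927 in delta cells, 0.902 in mural cells and 1.01 in macrophages. An antisense model, 1700045H11Rik, overlaps the locus, and whether strand was used in the counting is not given in the sources used here.

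Arrdc3 encodes an arrestin-domain protein that acts in the trafficking of beta-adrenergic receptors, on chromosome 13 from 80883384 to 80896042. It was the one member higher in endothelial cells, 80.6 CPM (73.9 to 87.8) and 129 CPM (119 to 139), a ratio of 1.60 (1.42 to 1.80), rank 35 from the highest of 6287 genes. The barcodes with both endothelial and mural markers had 93.6 and 131 CPM (1.40, 1.26 to 1.57). Delta cells, with 22.3 and 27.4 CPM, and mural cells, with 30.7 and 40.5, passed the 0.25 limit but their intervals, 0.863 to 1.75 and 0.774 to 2.23, held 1. The levels were 83.1 and 84.5 CPM in macrophages, 33.6 and 30.4 in alpha cells and 12.3 and 14.4 in beta cells. This locus too has an antisense model, 1700023H06Rik.

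**Figure D4:**
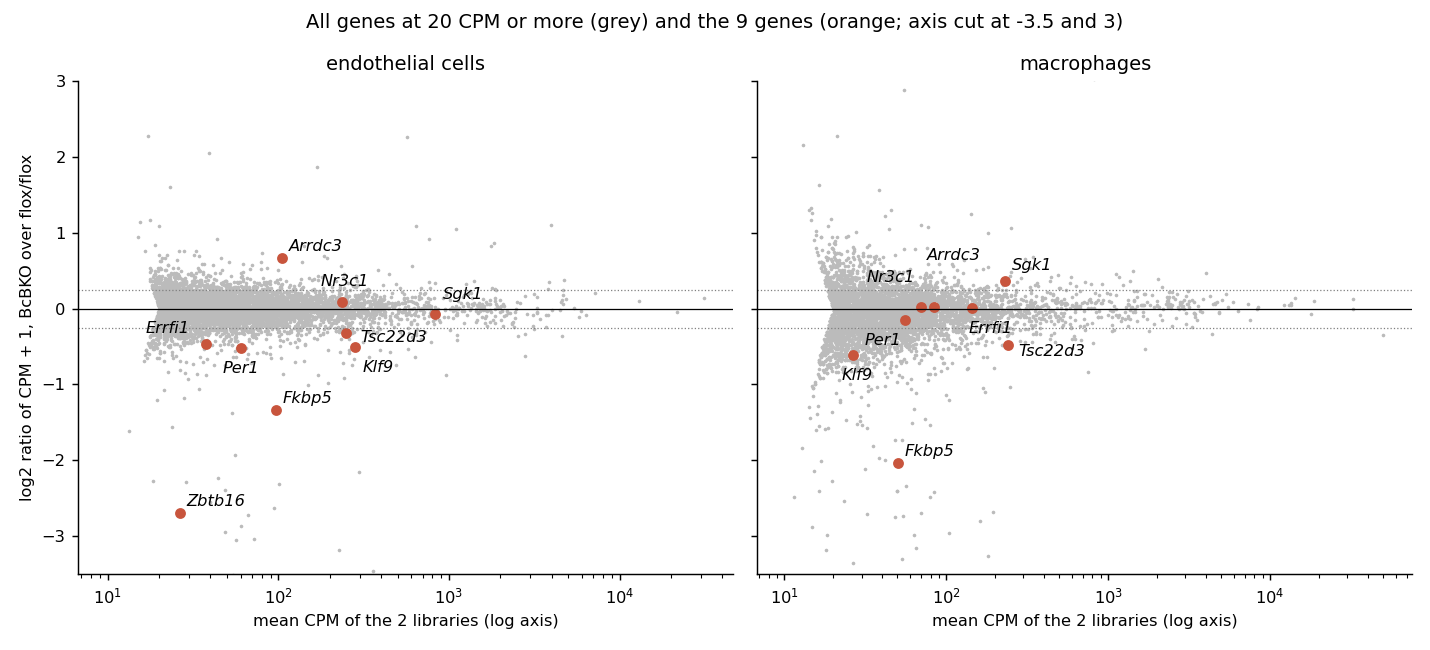
Log2 ratio of CPM + 1 (vertical axis, cut at -3.5 and 3) against mean CPM of the 2 libraries (horizontal, log axis) for all genes at 20 CPM or more, 6287 in endothelial cells and 4934 in macrophages, with the 9 genes at that level in orange and dotted lines at 0.25 either way. Zbtb16 at -2.70 and Fkbp5 at -1.34 lie under most genes in endothelial cells, as does Fkbp5 at -2.04 in macrophages.

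The receptor's partners were examined through a list of 18 genes, its paralogue, hormone-converting enzymes, chaperones, coregulators and efflux pumps. In beta cells 0 of 8 at the minimum passed the limit either way, with Hsp90ab1, a chaperone of the receptor, at 763 and 731 CPM, Hsp90b1 at 668 and 697, the co-chaperone Stip1 at 21.7 and 20.4 and the corepressor Ncor1 at 77.8 and 82.6. In endothelial cells 3 of 13 were lower and 0 higher, with a median of -0.03. Macrophages had 3 lower and 2 higher of 13, alpha cells 0 lower and 3 higher of 12, delta cells 1 lower and 0 higher of 13, and mural cells 3 lower and 5 higher of 16. Over all genes, 26.5% were lower and 25.0% higher in mural cells, 15.2% and 12.2% in delta cells, and 23.7% and 12.1% in macrophages. The shares were 9.30% and 8.03% in endothelial cells, 2.77% and 18.2% in alpha cells, and 1.80% and 5.82% in beta cells. Nr3c2, the mineralocorticoid receptor, was low, at 3.59 and 3.87 CPM in beta cells and 8.6 and 10.2 in endothelial cells. Hsd11b1, the enzyme that regenerates active glucocorticoid, was found mainly in mural cells, with 60 and 84 UMIs, or 52.6 and 121 CPM, and had 22 and 29 UMIs in beta cells.

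Other genes widely described as induced by glucocorticoids were taken from a list of 44, of which Cebpd is not analysed here. Klf15, Per2, Per3 and Txnip are also in the list of relatives below, and Per2 and Per3 in the clock list. Dusp1 and Zfp36 are also among the immediate-early genes. The list of 44 was chosen with earlier results of these data known, so nothing is read from its counts. In endothelial cells 15 of the 25 at the minimum were lower and 1 higher, against the 9.30% and 8.03% of all genes, and their median was -0.32. In macrophages 12 of 25 were lower and 1 higher, against 23.7% and 12.1% of all genes, with a median of -0.21. Mural cells had 15 lower and 5 higher of 30, against 26.5% and 25.0%, with a median of -0.26. Delta cells had 8 lower and 2 higher of 22, against 15.2% and 12.2%, with -0.12. In alpha cells 4 of 22 were lower and 5 higher, against 2.77% and 18.2%. In beta cells 3 of 15 were lower and 2 higher, against 1.80% and 5.82%. The medians in alpha and beta cells were 0.03 and 0.09.

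In beta cells the lower genes of that list were Rgs2, a regulator of G-protein signalling, at 325 CPM (322 to 329) and 152 CPM (149.6 to 154), and the metallothioneins, metal-binding proteins. Mt1 was at 997 CPM (992 to 1003) and 554 CPM (550.1 to 559), and Mt2 at 157 and 93.9 CPM. Rgs2 and Mt1 were rank 3 and 5 from the lowest of 2938 genes. On the higher side were Pik3r1, a regulatory subunit of phosphoinositide 3-kinase, at 29.7 and 38.4 CPM and the cell cycle inhibitor Cdkn1a at 35.3 and 42.2 CPM. Dusp1, a phosphatase of MAP kinases, was at 103 and 113 CPM, inside the limit. In endothelial cells Mt1 was at 102 and 67.8 CPM, Mt2 at 24.9 and 20.7, Rgs2 at 78.8 and 61.1 and Dusp1 at 1511 and 1459. In macrophages Rgs2 was at 764 and 882 CPM and Mt1 at 1158 and 943.

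The endothelial genes of the list named next were chosen after their values were seen. Cdkn1a was at 1245 and 679 CPM, with a ratio interval of 0.523 to 0.567. The transcription factor gene Cebpb was at 276 and 186 CPM (0.621 to 0.730), and Zfp36, whose protein speeds the decay of inflammatory transcripts, at 782 and 595 CPM (0.727 to 0.796). Sesn1 was at 49.3 and 26.4 CPM (0.433 to 0.659). Several of these genes also answer to other signals: Cdkn1a and Sesn1 are known targets of p53, and Zfp36 is an immediate-early gene.

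**Figure D5:**
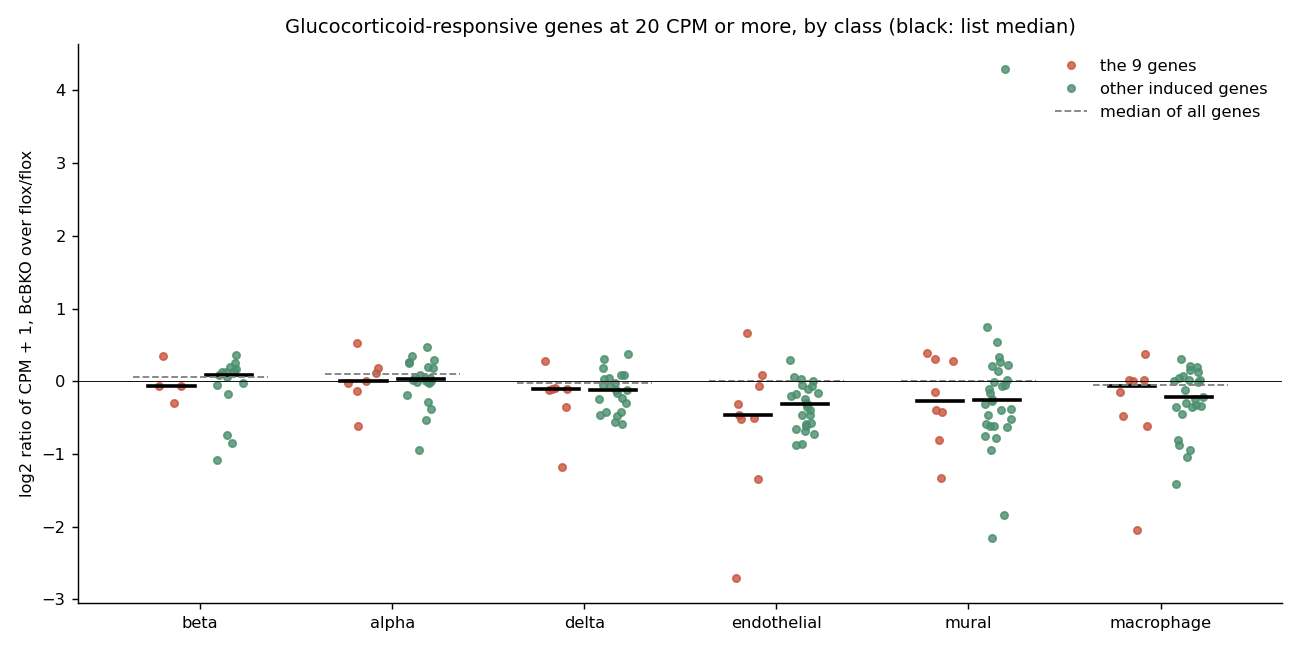
Log2 ratio of CPM + 1 (vertical axis) of genes at 20 CPM or more in each of 6 classes, for the 9 genes (orange) and the list of other induced genes (green); black bars are list medians and dashed grey lines the median of all genes. The medians of the other induced genes are -0.32 in endothelial cells, -0.26 in mural cells and 0.09 in beta cells, and one mural point, Lcn2, stands at 4.29.

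Of the immediate-early genes, which also respond to cell dispersal, 6 of 19 were lower in endothelial cells and 0 higher (median -0.20), 10 lower and 2 higher of 20 in mural cells (-0.27), 7 lower and 0 higher of 19 in delta cells (-0.20), 1 of 19 lower in macrophages (-0.03), 1 lower and 3 higher of 18 in alpha cells, and 1 of 15 lower in beta cells (-0.09). That beta-cell gene was Npas4, an activity-induced transcription factor, at 61.5 and 43.6 CPM; Atf3 was at 33.1 and 29.0 and Egr1 at 317 and 348. Their part in the differences of the 9 genes was not tested. Of the clock genes, 2 of 5 were lower in beta cells, Cry2 at 47.4 and 37.3 CPM and Dbp at 23.4 and 18.4, with Clock at 30.6 and 31.7 and Bhlhe41 at 20.7 and 22.3. In endothelial cells 0 of 4 passed the limit, in macrophages 1 was lower and 2 higher of 3, in delta cells 2 each of 10, in alpha cells 1 of 4 was higher, and in mural cells 6 of 8 were lower and 1 higher, with Dbp at 106 and 40.5 CPM. Among all genes, 26.5% were lower and 25.0% higher in mural cells, 15.2% and 12.2% in delta cells, and 23.7% and 12.1% in macrophages. The shares were 9.30% and 8.03% in endothelial cells, 2.77% and 18.2% in alpha cells, and 1.80% and 5.82% in beta cells. Per2 and Per3, the relatives of Per1, were at 7.81 and 8.32 CPM and at 8.79 and 7.94 in beta cells. The hours of islet collection are not given, so a difference in clock phase cannot be told apart from the label.

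Close relatives of the 9 genes, 21 in all, gave 0 of 7 past the limit in beta cells, where Tsc22d1 was at 137 and 132 CPM, Fkbp4 at 65.2 and 66.4, Klf6 at 51.9 and 55.6 and Txnip at 155 and 175. In endothelial cells 1 of 13 was lower and 0 higher, with a median of -0.07, and in macrophages 1 of 15 lower. Alpha cells had 4 of 13 higher, delta cells 4 lower and 1 higher of 15, and mural cells 5 lower and 4 higher of 15. Of all genes, 26.5% were lower and 25.0% higher in mural cells, 15.2% and 12.2% in delta cells, and 23.7% and 12.1% in macrophages. The shares were 9.30% and 8.03% in endothelial cells, 2.77% and 18.2% in alpha cells, and 1.80% and 5.82% in beta cells. Fkbp4, the relative that with Fkbp5 shares the receptor complex, was inside the limit in beta cells where Fkbp5 had a ratio of 0.631. Of 5 sex-linked genes 0 of 2 at the minimum passed the limit in beta cells. The Y-linked genes Ddx3y, at 31.8 and 35.5 CPM in beta cells, and Eif2s3y, at 21.3 and 20.1, were present in both libraries.

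Across the 12 sums of 6 classes in 2 libraries, the genes with the profile most like each member were taken from 8060 genes by Pearson's r of log2(CPM + 1). The points share library and depth, and the r values are given as a description. For Fkbp5 they were Pim3 (0.887), Glyr1 (0.804) and Sdccag3 (0.798), the loosest fits of the set, while for Tsc22d3 they were Pnp (0.992), H2-D1 (0.986) and Ifngr1 (0.985). Zbtb16 was nearest to Mafk (0.950), Cenpa (0.939) and Fam71a (0.937), and Per1 to Sertad3 (0.952), Adar (0.949) and Pcf11 (0.947). Klf9 was nearest to Fry (0.989), Trappc13 (0.988) and Epn2 (0.988), and Sgk1 to Swap70 (0.991), Itga5 (0.990) and Tnfaip2 (0.990). The genes most like Errfi1 were Bcl6 (0.976), Prdx5 (0.960) and Abr (0.956), those like Arrdc3 were Klf10 (0.978), Spata13 (0.969) and Dusp6 (0.965), and those like Nr3c1 were Hmg20b (0.994), Tcf4 (0.991) and Rara (0.987). Among the members, r was highest between Tsc22d3 and Sgk1 (0.95) and between Sgk1 and Arrdc3 (0.90), and it was 0.42 between Fkbp5 and Nr3c1.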

How the data were processed

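Islet cells of 2 pooled libraries were analysed from the deposited matrices of raw UMI counts per gene and barcode. Per the submitters' processing notes, the authors used Cell Ranger 3.1.0, Seurat 4.0.0 and build mm10; per the file headers, the matrices were written by Cell Ranger 6.1.2. The annotation is not given in the sources used here. Barcodes with at least 500 genes, 1000 UMIs and at most 20% mitochondrial UMIs were kept. Classes were beta (Ins1 and Ins2 at least 25% of UMIs, at least 10000 UMIs, Gcg, Sst and Ppy each under 1%) and, with insulin under 15%, alpha (Gcg at least 10%), delta (Sst at least 5%), endothelial (Plvap and Cdh5 at least 3 UMIs), mural (Rgs5 and Pdgfrb at least 5) and macrophage (C1qa and C1qb at least 5). Barcodes that met 2 rules were set aside, a choice made after seeing the data. Counts were summed per class and library and divided by the total per 1000000 UMIs, with exact Poisson intervals, exact conditional intervals of ratios and exact binomial intervals of shares. Log2 ratios used a pseudocount of 1 CPM. Whether doublets had been removed is not given in the sources used here; Scrublet called 170 of 7568 and 177 of 8504 barcodes (expected rate 8%), which were kept in the main values. There were no replicates and no tests. The ratio intervals and the signs of log2 ratios were checked on simulated Poisson counts. Such counts lack variation between cells, mice or captures, so the check covers the arithmetic only.

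The members and the lists (other induced genes, receptor partners, repressed inflammatory genes, relatives, immediate-early, clock and sex-linked genes, and cell type markers) were chosen with earlier results of these data known. Named genes were the members, the 2 highest and 2 lowest of each list in beta cells, 9 genes by name and the 3 most alike genes per member. Alternatives were TMM factors, totals without hormone and mitochondrial genes, other pseudocounts, no minimum level, stricter filters and classes, doublets removed, means over cells, thinning (2 random draws) and removal of the cells with most UMIs of a gene. Gene positions are from GENCODE M21 (GRCm38) and promoters from RefSeq (GRCm38.p6). TMM factors came from edgeR 4.0.16 in R 4.3.3, doublet calls from scanpy 1.11.5, intervals from scipy 1.17.1, and scripts ran under Python 3.11.15.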

Additional observations from a re-analysis of the deposited data

Results flagged for a closer look

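Tsc22d3 and Errfi1 went in opposite directions in different cell classes, each past 0.25 on the log2 scale with counting intervals clear of a ratio of 1. The log2 ratio of Tsc22d3 was 0.52 in alpha cells, against -0.35 in delta cells, -0.32 in endothelial cells and -0.48 in macrophages. That of Errfi1 was 0.35 in beta cells and -0.46 in endothelial cells. With 1 library per group these differences between classes were not tested. Over all alternatives Tsc22d3 in alpha cells ranged from 0.28 to 0.68, Errfi1 in beta cells from 0.27 to 0.63 and Errfi1 in endothelial cells from -1.58 to -0.22, which is inside the limit.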

How the results depend on the processing

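The direction of Fkbp5 held in all 6 classes under the 12 alternatives that give a log2 ratio: from -1.82 to -1.17 in endothelial cells, -5.69 to -1.85 in macrophages, -1.82 to -0.89 in delta cells, -0.93 to -0.47 in alpha cells, -2.37 to -0.76 in mural cells and -0.82 to -0.49 in beta cells. Zbtb16 in endothelial cells ranged from -4.42 to -1.98. The lowest value of each came from removing the 10% of cells with most UMIs of the gene (in alpha cells from thinning), and the highest from thinning or a pseudocount of 5. Without thinning, 8.76% of macrophages and 4.91% of mural cells in the library labelled BcBKO had a UMI of Fkbp5. For Zbtb16, 2.91% of its endothelial cells did. Each share is under 10%, so that removal left no UMI in that library and fixed the sign in advance. Those lowest values are no check of direction. Of 648 values of single genes under the alternatives, 590 stayed within the counting interval, 56 moved and 2 reversed. Both reversals came from 1 random draw of the thinning each: Arrdc3 in mural cells was at -0.02 in one and 0.45 in the other, and Sgk1 in mural cells at 0.37 and -0.03. Endothelial counts stayed within 1.5 times of 6 lower and 1 higher under every alternative run.

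Counts and medians that moved were these. Thinning to 2000 UMIs gave a median of 0.26 with 2 lower and 3 higher in alpha cells, 3 higher in delta cells and 0 higher in macrophages. The other draw, the one behind the shares and added after seeing the data, gave -0.01 with 1 lower and 2 higher, 1 higher and 1 higher in those classes, and a median of 0.01 in beta cells, so these values rest on the draw. TMM factors moved the beta-cell median to -0.14 and removing doublets to 0.03. With no minimum level there were 2 lower and 2 higher in both beta and alpha cells and 2 higher in delta cells. Totals without hormone and mitochondrial genes gave 2 lower and 2 higher in beta cells. Stricter class thresholds gave 2 higher in alpha cells and 0 higher in delta cells, where a pseudocount of 5 also gave 0. Removing the top cells gave 0 higher in beta and delta cells and 1 in mural cells, and the stricter cell filter gave 0 higher in mural cells. Counting barcodes in each class whose rule they met, added after seeing the data, gave 1 lower in delta cells, 0 higher in macrophages and 1 higher in mural cells. The cause was not tested. At most 1 mismatch left the palindrome in 1 window in place of 2. Shares of cells with a UMI moved in 102 of 108 values without thinning, by construction, and in 8 of 108 without doublets, where the thinning was also drawn again.

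No paired analysis was possible because each group had 1 library, so the groups shared fewer than 2 replicate numbers and no test was run. Depth limits mural cells most, where 3 UMIs equal 2.63 and 4.34 CPM.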

Other observations

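Inflammatory genes widely described as repressed by glucocorticoids did not move one way. In macrophages, where 23.7% of all genes were lower and 12.1% higher, 2 of the 8 at the minimum were lower and 1 higher. The median of those 8 was -0.11 against -0.05 for all genes. The genes named here were chosen after their values were seen. The chemokine genes Cxcl2 and Ccl2 were the lower ones, at 1986 and 1369.6 CPM and at 100.1 and 54.9 CPM, and Cxcl1 was the higher one, at 26.1 and 65.5 CPM. Il1b was at 1196 and 1127 CPM and Tnf at 445 and 441. In mural cells, where 25.0% of all genes were higher, 3 of 3 at the minimum were higher, with a median of 0.57. The median over all 12 listed was 0.00, where genes with no UMI in either library, Il1a, Il12b and Nos2, count as 0.00. Il6 was at 8.76 and 30.4 CPM, at the minimum only in the library where it was high. Cxcl1 was at 97.3 and 145 CPM and Ccl2 at 35.9 and 52.1, whose ratio had an interval of 0.900 to 2.32. Of those under the minimum, Ccl4 was at 12.3 and 1.45 CPM and Cxcl2 at 10.5 and 2.89, and Ptgs2 had 5 and 0 UMIs. No gene of the list reached the minimum in beta, alpha, delta or endothelial cells.

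Lcn2, a siderophore-binding protein of the acute phase, had the highest log2 ratio of the induced list, 4.29 in mural cells, at 11.4 and 242 CPM. Of 5 duct markers in those mural cells 4 were also higher, with a median of 1.89: Krt8 at 64.0 and 469 CPM, Krt19 at 11.4 and 53.5, Krt7 at 14.9 and 57.9 and Sox9 at 35.1 and 49.2, whose ratio had an interval of 0.861 to 2.27. The fifth, Spp1, was at 911 and 855 CPM. Their part in the Lcn2 value was not tested.

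Kept barcodes that met no rule, set aside here, had Fkbp5 at 35.5 and 16.8 CPM (ratio 0.474, 0.423 to 0.530), Zbtb16 at 5.12 and 0.668 CPM (0.131, 0.0791 to 0.207) and Sgk1 at 27.0 and 20.4 CPM (0.755, 0.673 to 0.848). Barcodes removed by the filter, with median depths of 892 and 899 UMIs, had Fkbp5 at 38.5 and 23.1 CPM (0.599, 0.429 to 0.833) and Per1 at 64.7 and 45.5 CPM (0.703, 0.551 to 0.896). Sgk1 was lower there too, at 30.4 and 20.6 CPM (0.678, 0.471 to 0.972). Arrdc3 was higher, at 27.0 and 43.3 CPM (1.61, 1.18 to 2.21). Errfi1 also passed the limit on the higher side, at 44.1 and 54.7 CPM (1.24, 0.960 to 1.61).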
